A study of Homo sapiens with 12 samples.

Results

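Cell adhesion was followed through 40 genes that were listed by name: 10 integrin subunits, 11 collagen, laminin and fibronectin genes of the extracellular matrix, 6 cadherin, catenin and vimentin genes, 9 linkers between integrins and actin, and the 4 genes RHOA, RHOB, RAC1 and CDC42. All 40 were among the 34643 genes of the deposited table. In total 39 of them passed the filter on low counts and were tested among 15419 genes. The exception was CDH2 (N-cadherin), which had 0 counts in all 12 libraries.

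The cells were LNCaP, an androgen-responsive human prostate cancer line derived from a lymph node metastasis, which carried a puromycin-selected lentiviral shRNA driven by the U6 promoter. The shRNA was either a scrambled control (sh_scramble) or directed against TMEFF2 (sh_TMEFF2), a transmembrane protein with high expression in the prostate, and was carried for about 17 days. Both lines were held for 24 h in charcoal-stripped serum and then given 10 nM dihydrotestosterone (DHT, the potent androgen; +DHT) or ethanol vehicle (−DHT) for 24 h. That gave 3 libraries for each line at each DHT level, 12 in 4 groups, with totals of 19450953 to 22612216 estimated counts (median 21194714). The 3 repeats were independent treatments of cells from 2 transductions, and the labels do not say which library came from which transduction, so p-values measure the spread between treatments more than between transductions.

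Integrins are dimers of an alpha and a beta chain that span the membrane. Outside the cell they bind laminins, collagens and fibronectin, and inside they bind talin, which with vinculin, alpha-actinin, filamin, zyxin and paxillin couples them to actin at focal adhesions, while focal adhesion kinase (PTK2) and ILK signal from there. Cadherins join neighbouring epithelial cells and are tied to actin by catenins. In the prostate, basal cells rest on a basement membrane rich in laminin and carry the luminal cells, and the loss or remodelling of these contacts is a known feature of invasive cancer.

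The labels were checked first. TMEFF2, the target of the shRNA, was at 77.8, 73.8 and 103 CPM (counts scaled to library size with TMM factors) in sh_scramble −DHT and at 68.6, 39.3 and 81.7 in sh_TMEFF2 −DHT. With DHT it was at 173, 117 and 169 in sh_scramble and 142, 90.1 and 114 in sh_TMEFF2. Mean levels were below those of sh_scramble, but the libraries of the lines overlapped at both DHT levels, and the differences did not pass the test (log2 fold change -0.43 ± 0.25 (SE), adjusted p = 0.50, without DHT, and -0.41 ± 0.25, adjusted p = 0.30, with DHT). Every adjusted p here, unless DESeq2 or limma-voom is named, is from the quasi-likelihood test of edgeR after Benjamini-Hochberg correction for all genes tested. KLK3, which encodes prostate-specific antigen, averaged 1925 ± 26.5, 7495 ± 261, 356 ± 134 and 1949 ± 511 CPM (mean ± SD, n = 3) in the order sh_scramble without and with DHT, then sh_TMEFF2 without and with DHT. FKBP5, another androgen-induced gene, averaged 63.5 ± 8.05, 661 ± 79.8, 60.7 ± 4.78 and 112 ± 25.0 CPM in the same order. Both rose with DHT in both lines (adjusted p from 4.9e-08 to 0.0030).

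All 10 luminal prostate markers passed the filter, and their summed level, led by KLK3, differed between the lines. It was 7195, 7091 and 6948 CPM before and 15392, 14453 and 16111 after DHT in sh_scramble, and 4472, 4820.2 and 5068 before and 5455, 6062 and 6944 after DHT in sh_TMEFF2, lower than in sh_scramble in every library at the same DHT level. The 4 basal markers summed to 0.196 to 1.92 CPM, the highest 3 values in sh_scramble +DHT, with KRT5 at 0. The 8 fibroblast and smooth muscle markers, 4 of them past the filter, differed between the lines: the sh_scramble libraries summed to 24.5, 25.1 and 25.6 CPM before and 20.6, 25.8 and 20.4 after DHT, and the sh_TMEFF2 libraries to 42.8, 36.5 and 29.5 before and 28.6, 29.5 and 31.6 after it. Their most abundant gene was COL1A1 (11.9 to 30.4 CPM), and the defining stromal markers DCN and LUM were at most 0.625 CPM and 0.529 CPM in every library. The 4 endothelial markers summed to 13.3 to 29.5 CPM, nearly all VWF (11.8 to 28.3 CPM), with CDH5 and KDR at or below 3 counts in every library. The 4 leukocyte markers summed to 8.07 to 12.9 CPM, with CD68 at 3.19 to 8.85 CPM and CD3E at or below 3 counts in every library.

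Per length of the canonical transcript, ITGB1 dominated among the listed integrin genes, at a mean level of 172 CPM per kb over the 12 libraries. It encodes the beta chain shared by most laminin, collagen and fibronectin receptors. The most abundant alpha chain among the listed genes was ITGAV, the vitronectin receptor chain, at 20.5 CPM per kb. ITGB5 (a partner of ITGAV), ITGA6 (laminin receptors), ITGA5 (the fibronectin receptor), ITGA3 (laminin receptors) and ITGA2 (collagen receptor) followed at levels of 7.53, 5.24, 5.09, 2.64 and 1.53 CPM per kb, and ITGB4, ITGA1 and ITGB8 at 0.580, 0.347 and 0.217. Among laminin chains LAMC1 (gamma 1) and LAMB2 (beta 2) had levels of 51.8 and 37.3 CPM per kb and the alpha chains LAMA3 and LAMA5 14.3 and 10.2, while LAMB1 was at 0.590. CDH1, which encodes E-cadherin, the junction protein of epithelia, was at 147 CPM per kb, against the 0 counts of CDH2, and the mesenchymal filament gene VIM at 2.10. These levels assume the canonical transcript of each gene in GENCODE v44, and the isoform used in these cells was not examined.

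LAMC1 and VCL passed a test, given below with its limits, for DHT responses that differed between the lines. COL12A1 had the largest difference between the lines without DHT among the members. The promoters of these 3 members are therefore shown. Each is the 250 bases before the RefSeq start of transcription on GRCh38.p14, on the strand of the gene, with capitals marking the GC box GGGCGG (or CCGCCC, its other strand) and the TEAD motif GGAATG (or CATTCC). LAMC1 lies at chr1:183023170-183023419 (plus strand), VCL at chr10:73997866-73998115 (plus strand) and COL12A1 at chr6:75206054-75206303 (minus strand).
LAMC1: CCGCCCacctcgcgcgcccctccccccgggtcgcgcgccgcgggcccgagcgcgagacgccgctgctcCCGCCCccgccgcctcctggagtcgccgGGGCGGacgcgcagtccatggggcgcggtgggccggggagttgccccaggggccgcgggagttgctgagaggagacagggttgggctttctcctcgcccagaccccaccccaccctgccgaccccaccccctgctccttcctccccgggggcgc
VCL: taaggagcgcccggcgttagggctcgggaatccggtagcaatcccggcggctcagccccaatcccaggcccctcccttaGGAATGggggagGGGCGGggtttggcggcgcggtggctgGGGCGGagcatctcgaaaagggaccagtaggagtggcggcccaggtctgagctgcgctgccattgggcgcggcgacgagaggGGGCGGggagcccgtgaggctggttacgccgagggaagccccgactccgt
COL12A1: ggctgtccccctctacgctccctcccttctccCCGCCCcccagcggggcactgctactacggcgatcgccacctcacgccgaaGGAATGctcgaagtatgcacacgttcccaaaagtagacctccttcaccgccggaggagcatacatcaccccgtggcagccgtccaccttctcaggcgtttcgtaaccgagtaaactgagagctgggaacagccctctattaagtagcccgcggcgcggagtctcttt
The LAMC1 and VCL windows each held 3 GC boxes, and the COL12A1 window held 1. VCL and COL12A1 each held 1 TEAD motif, which began 171 and 167 bases before the start, and no match overlapped another. The core of the androgen receptor motif, AGAACA (or TGTTCT), was in none of the 3 windows. RefSeq promoters were found for 32 of the 40 members (47 windows). A GC box was in 33 of the 47 against 42.6% of all 35114 promoters, a TEAD motif in 6 of the 47 against 11.9%, and the androgen receptor core in 3 of the 47 against 12.4%. Those 3 belonged to ACTN1, ACTN4 and ITGA6, of which only ACTN1 passed the test for DHT in sh_scramble. Some members have several of the 47 windows, and the 35114 promoters were not matched for expression in these cells. A match is a run of letters, not a measured binding site.

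The response to DHT was compared with vehicle within each line. In sh_scramble 6 members rose and 12 fell at an adjusted p of at most 0.05, where 14.4% of all genes tested rose and 12.6% fell. The 12 became 6 without the sh_scramble +DHT replicate 2 library, and 7 without −DHT replicate 1 or replicate 2 of that line. In all 18 of 39 (46.2%) changed, against 27% of all genes. The members were chosen with earlier results of these data known, so this gap is not a result about adhesion genes. Past a fold change of 1.5, 2 rose (LAMC1 and ITGAV) and 4 fell (COL5A2, ITGA3, FN1 and ITGA2), against 5.45% and 6.45% of all genes. The groups did not overlap for 8 members that were higher and 13 that were lower, against 21.3% and 20.5% of all genes (41.8% in either direction). The median log2 fold change of the 39 was -0.01, the same to 2 decimals as that of all genes. In sh_TMEFF2 8 fell, against 5.21% of all genes, and 0 rose, against 7.84%. At an unadjusted p under 0.05 edgeR had 2 members higher there, and at an adjusted p of at most 0.05 DESeq2 had 2 (LAMC1, and COL12A1, for which no test is read in this comparison) and limma-voom 0. The median was -0.10 over the members and -0.02 over all genes. The 8 were COL6A1, LAMA5, LAMB2, CTNNB1, CTNND1, RHOB, ZYX and PXN, and none of them changed by 1.5-fold, where 1.6% of all genes fell and 3.28% rose past that fold. Without overlap were 2 members higher and 12 lower, against 15.6% and 15.7% (31.3% in either direction). Without the sh_TMEFF2 +DHT replicate 3 library the count of 8 that fell became 1. It became 3 without −DHT replicate 2 of that line and 5 without its −DHT replicate 1 or its +DHT replicate 2.

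**Figure D1:**
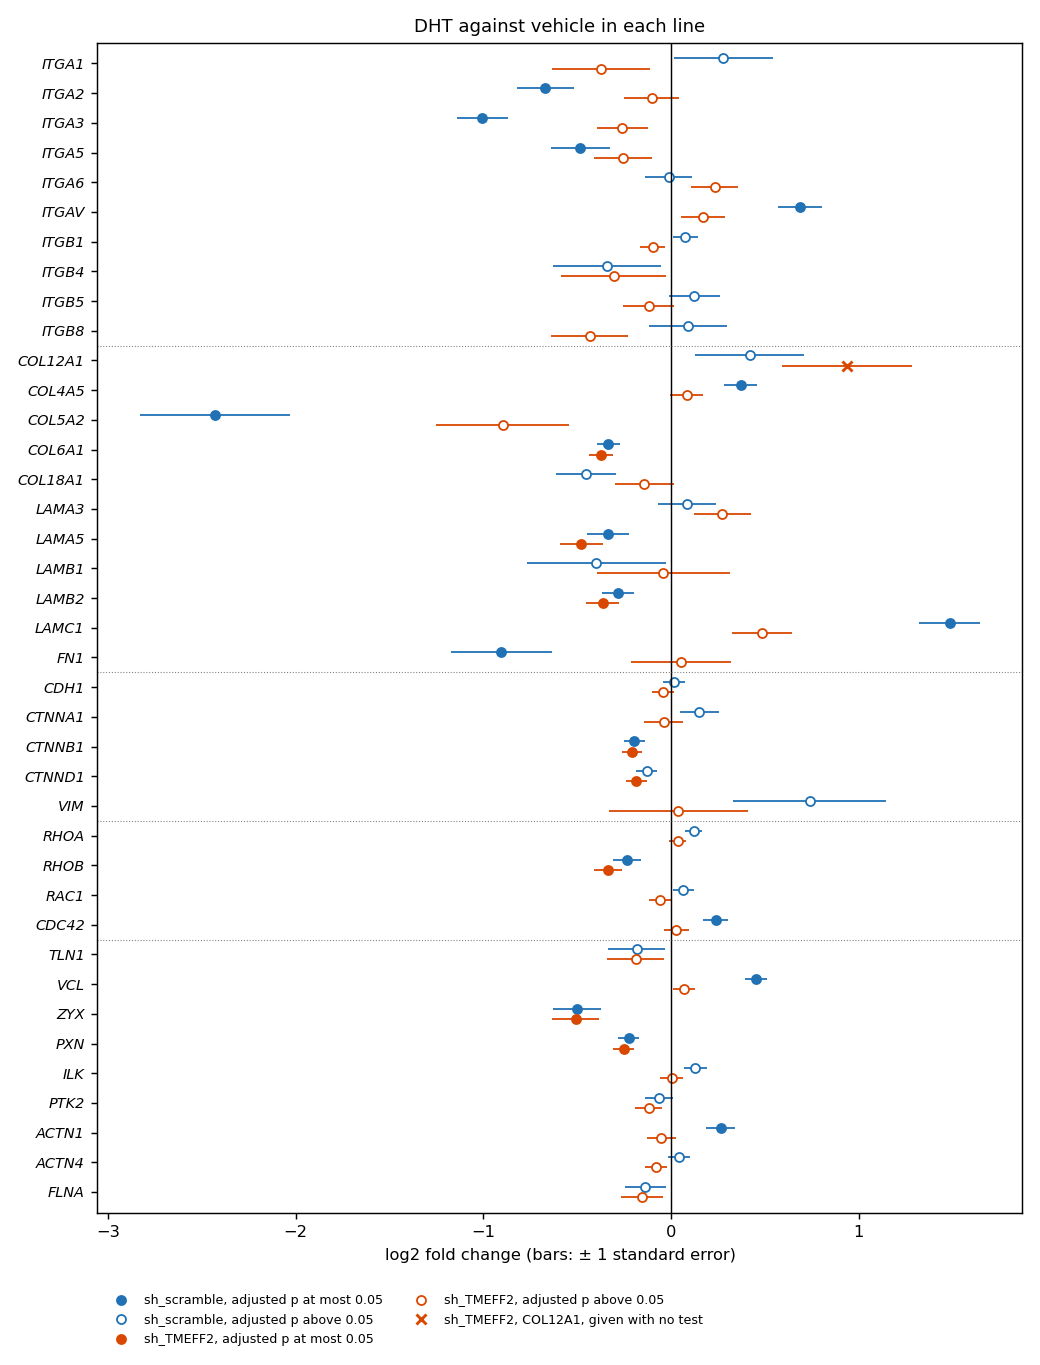
Log2 fold change (x axis) of the 39 members tested (y axis, ordered by role) with DHT against vehicle in sh_scramble (blue) and sh_TMEFF2 (orange), with bars of 1 standard error, filled points where the adjusted p was at most 0.05 and a cross for COL12A1 in sh_TMEFF2, given with no test. In sh_scramble LAMC1 lies farthest to the right and COL5A2 farthest to the left, and in sh_TMEFF2 the filled points are all below 0.

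Among the integrins DHT raised ITGAV and lowered ITGA2, ITGA3 and ITGA5 in sh_scramble. ITGAV, an alpha chain of receptors for vitronectin and other RGD proteins, was at 120.4, 127 and 119 CPM in sh_scramble −DHT and 194, 232 and 162 in sh_scramble +DHT. Its sh_TMEFF2 levels were 121, 125 and 118 without and 120.0, 157 and 133 with DHT. The 3 sh_scramble +DHT libraries were above every other library, and the sh_TMEFF2 groups overlapped. The log2 fold change with DHT was 0.69 ± 0.12 (SE), adjusted p = 0.00088, in sh_scramble and 0.17 ± 0.12 (SE), adjusted p = 0.39, in sh_TMEFF2.

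ITGA3, the alpha chain of the laminin receptor α3β1, was at 18.3, 15.6 and 21.0 CPM in sh_scramble −DHT and 9.23, 10.2 and 7.95 in sh_scramble +DHT. The sh_TMEFF2 libraries had 14.0, 13.9 and 11.9 without and 11.8, 11.4 and 10.0 with DHT. In sh_scramble the groups were well apart, and in sh_TMEFF2 the −DHT and +DHT libraries were separated by a narrow gap of 11.9 against 11.8 CPM. DHT changed it by a log2 fold of -1.01 ± 0.14 (SE), adjusted p = 0.00015, in sh_scramble and -0.26 ± 0.14 (SE), adjusted p = 0.24, in sh_TMEFF2.

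ITGA2, the alpha chain of the collagen receptor α2β1, was at 11.9, 13.0 and 14.0 CPM in sh_scramble −DHT and 7.92, 7.62 and 8.95 in sh_scramble +DHT. Values in sh_TMEFF2 were 17.1, 11.1 and 13.6 without and 13.5, 11.8 and 13.6 with DHT. The sh_scramble +DHT libraries were below all 9 others, and the sh_TMEFF2 groups overlapped. On the log2 scale the change was -0.67 ± 0.15 (SE), adjusted p = 0.0056, in sh_scramble and -0.10 ± 0.15 (SE), adjusted p = 0.72, in sh_TMEFF2. ITGA5, the alpha chain of the classical fibronectin receptor, fell in sh_scramble (-0.48 ± 0.16 (SE), adjusted p = 0.038), and its log2 fold change in sh_TMEFF2 was -0.26 (adjusted p = 0.32). The other 6 integrin genes, ITGA1, ITGA6, ITGB1, ITGB4, ITGB5 and ITGB8, did not pass the test in either line, with log2 fold changes from -0.34 to 0.28 in sh_scramble and from -0.43 to 0.23 in sh_TMEFF2. In sh_TMEFF2, where 13.1% of all genes passed, none of the 10 integrins did by edgeR, DESeq2 or limma-voom, and edgeR's unadjusted p was under 0.05 for 0 of them.

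The matrix genes held the largest DHT responses, with 2 higher and 5 lower of 11 in sh_scramble, where 14.4% of all genes were higher and 12.6% lower, and 3 lower in sh_TMEFF2, where 5.21% of all genes were. LAMC1, the gamma 1 chain found in most laminins, was at 291, 253 and 244 CPM in sh_scramble −DHT and 846, 791 and 570.3 in sh_scramble +DHT. In sh_TMEFF2 it was at 242, 308 and 256 without and 308, 456 and 366 with DHT, where the lowest +DHT library equalled the highest −DHT library to 3 digits. Each sh_scramble +DHT library was above all 9 others. The log2 fold change was 1.49 ± 0.16 (SE), adjusted p = 2.9e-05 (a 2.80-fold rise) in sh_scramble and 0.49 ± 0.16 (SE), adjusted p = 0.064, in sh_TMEFF2. The sh_TMEFF2 value passed the test by DESeq2 (adjusted p = 0.012) and, in edgeR, without a filter on low counts (adjusted p = 0.031). It also passed in edgeR with the replicate numbers of the titles fitted as a block.

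LAMA5 and LAMB2 fell with DHT in both lines. LAMA5, the alpha 5 chain of basement membrane laminins, was at 130.2, 135 and 124 CPM in sh_scramble −DHT and 107, 82.0 and 120.1 in sh_scramble +DHT, and at 132, 139.6 and 135 and 108, 90.4 and 93.5 in sh_TMEFF2. LAMB2, the beta 2 chain, was at 244, 268 and 228 and 229, 194 and 186 in sh_scramble and 227, 229 and 219 and 175, 188 and 161 in sh_TMEFF2. In sh_TMEFF2 both genes were lower in every +DHT than in every −DHT library, as was LAMA5 in sh_scramble, while LAMB2 overlapped there in 1 library pair. LAMA5 had log2 fold changes of -0.34 ± 0.11 (SE), adjusted p = 0.046, in sh_scramble and -0.48 ± 0.11 (SE), adjusted p = 0.017, in sh_TMEFF2. LAMB2 had -0.28 ± 0.09 (SE), adjusted p = 0.030, and -0.36 ± 0.09 (SE), adjusted p = 0.017. In sh_scramble LAMA5 passed in 2 of the 12 fits that each left out a library, with a highest adjusted p of 0.14 without sh_scramble +DHT replicate 2, and LAMB2 in 8 of 12, and both missed the test when the 6 sh_scramble libraries were fitted alone (adjusted p = 0.079 and 0.056). Fits that left out a library outside the 2 groups compared changed only estimates shared by all groups, such as the spread. Counts out of 12, here and below, can therefore overstate how stable a call is. LAMA3, the alpha 3 chain of epithelial laminin, and LAMB1 did not pass in either line.

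COL5A2, a chain of the fibrillar type V collagen, was at 16.2, 11.3 and 6.71 CPM in sh_scramble −DHT and 2.93, 1.51 and 1.90 in sh_scramble +DHT. Its sh_TMEFF2 levels were 22.2, 14.2 and 11.6 without and 12.1, 7.99 and 5.61 with DHT. The sh_scramble +DHT libraries were the lowest of all 12, and the sh_TMEFF2 groups overlapped. DHT changed it by a log2 fold of -2.43 ± 0.40 (SE), adjusted p = 0.00068 (a fall of 5.39-fold) in sh_scramble and -0.90 ± 0.35 (SE), adjusted p = 0.12, in sh_TMEFF2. Each sh_TMEFF2 +DHT library was below the sh_TMEFF2 −DHT library of the same number. This fall passed in edgeR with the replicate numbers fitted as a block, although the titles do not show which libraries were handled together.

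COL6A1, a chain of beaded-filament type VI collagen, fell by a like amount in both lines, from 225, 214 and 219 to 172, 164 and 187 CPM in sh_scramble and from 225, 238 and 225 to 175, 187 and 169 in sh_TMEFF2. All 6 +DHT libraries were below all 6 −DHT libraries. On the log2 scale the change was -0.33 ± 0.06 (SE), adjusted p = 0.0016, and -0.37 ± 0.06 (SE), adjusted p = 0.0028. COL4A5, a chain of basement membrane type IV collagen, rose in sh_scramble from 108, 90.8 and 98.4 to 141, 126 and 117 CPM, without overlap, and was at 102, 92.9 and 93.0 and 110.3, 101 and 94.0 in sh_TMEFF2, with overlap. Its log2 fold change was 0.37 ± 0.09 (SE), adjusted p = 0.0078, in sh_scramble and 0.08 ± 0.09 (SE), adjusted p = 0.59, in sh_TMEFF2. COL18A1, the precursor of endostatin, had -0.45 (adjusted p = 0.054) and -0.14 (adjusted p = 0.62). The first of these passed by DESeq2 (adjusted p = 0.026) and limma-voom (adjusted p = 0.048) and, in edgeR, with either other filter or with library size normalization (adjusted p = 0.040, 0.041 and 0.031).

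FN1, which encodes fibronectin, the ligand of α5β1, was at 457, 347 and 307 CPM in sh_scramble −DHT and 249.9, 185 and 159 in sh_scramble +DHT. The sh_TMEFF2 libraries had 588, 493 and 306 without and 618, 501 and 321 with DHT. The sh_scramble +DHT libraries were below all others, and the spread within each group was wide. The log2 fold change was -0.90 ± 0.27 (SE), adjusted p = 0.025, in sh_scramble and 0.05 ± 0.27 (SE), adjusted p = 0.92, in sh_TMEFF2. The first of these passed in 9 of the 12 fits that left out a library, and missed the test without sh_scramble −DHT replicate 1 (adjusted p = 0.10), +DHT replicate 2 or +DHT replicate 3.

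COL12A1, a fibril-associated collagen, had a log2 fold change with DHT of 0.42 ± 0.29 (SE), adjusted p = 0.32, in sh_scramble and 0.94 ± 0.35 (SE) in sh_TMEFF2. The gene had been singled out beforehand for its low level in sh_TMEFF2 −DHT, from which the second value starts, so that value is given with no test. Its libraries are given with the comparison of the lines.

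The tested cadherin, catenin and vimentin members were CDH1, CTNNA1, CTNNB1, CTNND1 and VIM. CDH1 averaged 701 ± 20.2, 709 ± 49.1, 715 ± 24.4 and 695 ± 29.0 CPM (SD, n = 3) in the group order used for KLK3, with log2 fold changes with DHT of 0.02 (adjusted p = 0.87) and -0.04 (adjusted p = 0.72). CTNNB1, the beta-catenin gene, fell with DHT in both lines, -0.20 ± 0.05 (SE), adjusted p = 0.018, in sh_scramble and -0.21 ± 0.05 (SE), adjusted p = 0.025, in sh_TMEFF2. These CTNNB1 values passed in 9 and 8 of the 12 fits that left out a library, with highest adjusted p of 0.073 and 0.11. CTNND1, the p120 catenin gene, fell in sh_TMEFF2 (-0.18 ± 0.05 (SE), adjusted p = 0.044) and had -0.13 (adjusted p = 0.10) in sh_scramble. The sh_TMEFF2 value passed in 1 of the 12 fits that left out a library, with a highest adjusted p of 0.17. CTNNA1 (alpha-catenin) and VIM did not pass in either line.

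RHOB, which sits on endosomes, fell in both lines (-0.23 ± 0.07 (SE), adjusted p = 0.031, in sh_scramble and -0.34 ± 0.07 (SE), adjusted p = 0.010, in sh_TMEFF2). CDC42, which drives filopodia, rose in sh_scramble (0.24 ± 0.07 (SE), adjusted p = 0.017) and had 0.03 (adjusted p = 0.83) in sh_TMEFF2. RHOA and RAC1 did not pass, with log2 fold changes between -0.06 and 0.12.

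Of the focal adhesion linkers VCL and ACTN1 rose and ZYX and PXN fell in sh_scramble. VCL, which encodes vinculin, the protein that reinforces the talin to actin link, was at 176, 173 and 161 CPM in sh_scramble −DHT and 245, 235 and 219 in sh_scramble +DHT. Values in sh_TMEFF2 were 164, 168 and 166 without and 171, 179 and 173 with DHT. The sh_scramble +DHT libraries were above all others by a wide margin, and the sh_TMEFF2 groups lay close together without overlap. DHT changed it by a log2 fold of 0.45 ± 0.06 (SE), adjusted p = 9.6e-05, in sh_scramble and 0.07 ± 0.06 (SE), adjusted p = 0.48, in sh_TMEFF2.

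ZYX, which encodes zyxin, a sensor of tension on actin fibres, was at 38.2, 37.3 and 50.2 CPM in sh_scramble −DHT and 26.7, 27.0 and 35.0 in sh_scramble +DHT. In sh_TMEFF2 it was at 46.6, 49.0 and 52.6 without and 34.5, 36.9 and 32.8 with DHT. Groups did not overlap in either line, and the log2 fold changes were -0.50 ± 0.13 (SE), adjusted p = 0.011, and -0.51 ± 0.13 (SE), adjusted p = 0.020. PXN, the paxillin scaffold gene, fell too (-0.22 ± 0.06 (SE), adjusted p = 0.010, in sh_scramble and -0.25 ± 0.06 (SE), adjusted p = 0.012, in sh_TMEFF2). ACTN1, an alpha-actinin that crosslinks actin, rose in sh_scramble (0.27 ± 0.08 (SE), adjusted p = 0.021) and had -0.05 (adjusted p = 0.73) in sh_TMEFF2. TLN1 (talin), ILK, PTK2, ACTN4 and FLNA did not pass in either line.

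**Figure D2:**
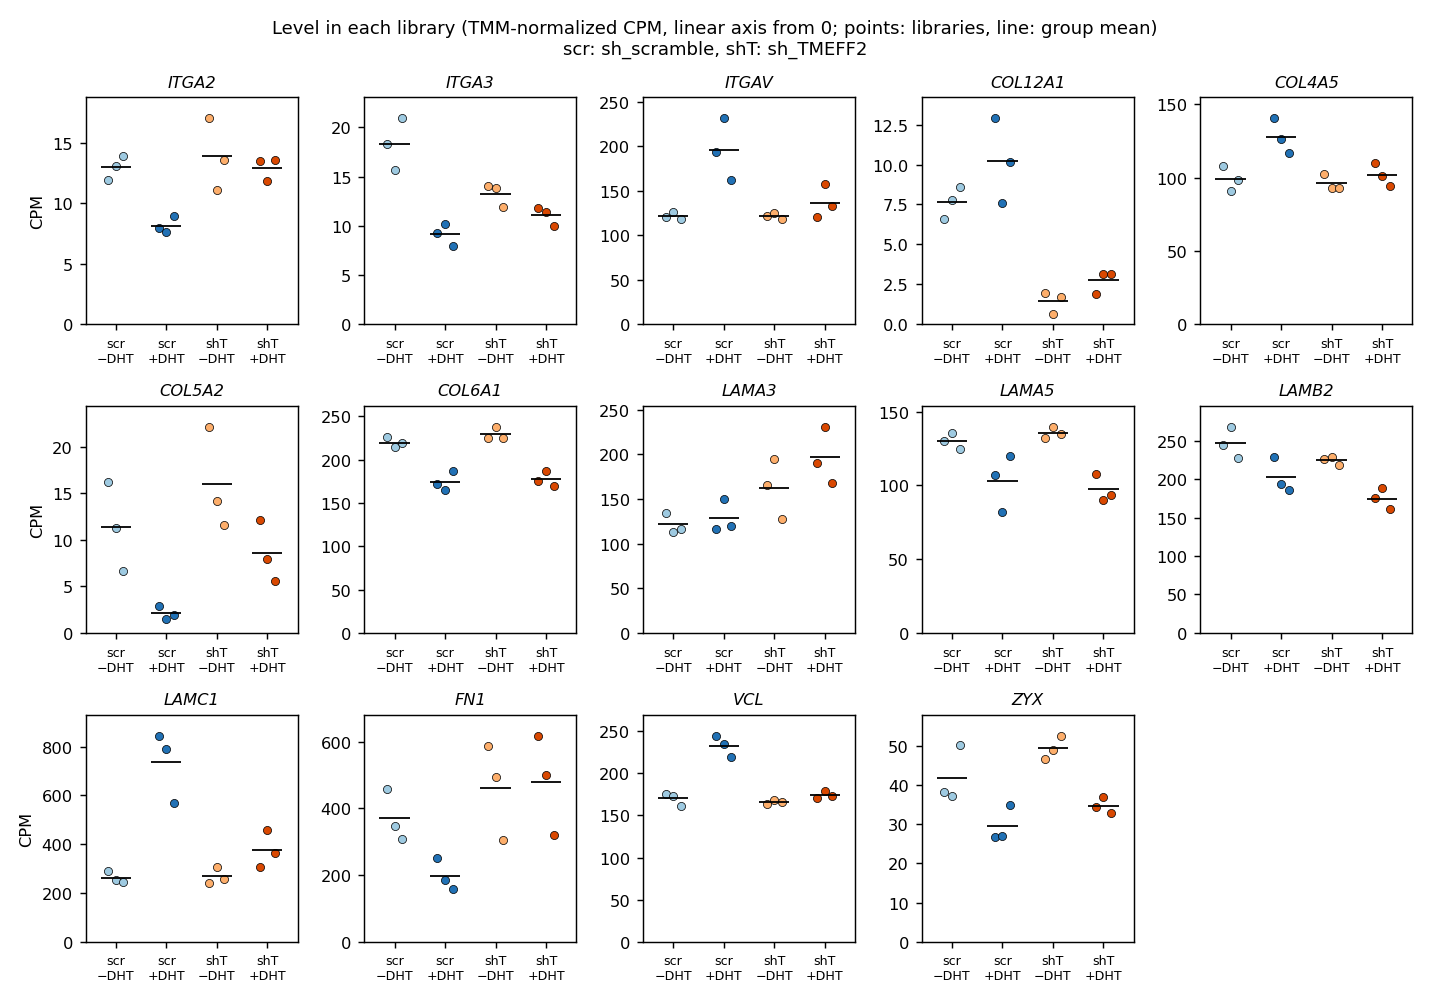
Level of 14 members (panels) in each library, as TMM-normalized CPM on linear axes from 0 (y axis), in the 4 groups (x axis), with a point for each of the 3 libraries and a line at the group mean. The sh_scramble +DHT libraries stand above the other groups for LAMC1, VCL and ITGAV and below them for COL5A2, FN1 and ITGA2, and COL12A1 is low in all 6 sh_TMEFF2 libraries.

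The lines were then compared at each DHT level. These comparisons share their libraries with the DHT comparisons above, so their values are not separate evidence on the groups that recur. Without DHT COL12A1, singled out beforehand for its low level in sh_TMEFF2, is given with no test. Of the other 38 members 0 passed in either direction, where 0.623% of all genes tested were higher, 0.493% lower and 1.12% either. Among them edgeR had 6 higher and 1 lower at an unadjusted p under 0.05. At an adjusted p of at most 0.05 DESeq2 had 3 higher (VIM, FLNA and ITGB1) and 1 lower (ITGA3), and limma-voom 0. The groups did not overlap for 8 members higher and 2 lower, COL12A1 among the latter, against 9.35% and 9.18% (18.5% in either direction). The median log2 fold change was 0.09 over the 39 members and -0.004 over all genes. COL12A1 was at 6.56, 7.76 and 8.61 CPM in sh_scramble −DHT (145, 151 and 176 counts) and 1.97, 0.664 and 1.67 in sh_TMEFF2 −DHT (41, 15 and 36 counts), a log2 fold change of -2.42 ± 0.33 (SE), or 5.34-fold lower. Its sh_scramble libraries were all above its sh_TMEFF2 libraries.

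With DHT COL12A1 was at 12.9, 7.62 and 10.2 CPM in sh_scramble (256, 156 and 203 counts) and 1.90, 3.15 and 3.16 in sh_TMEFF2 (41, 69 and 71 counts). The groups did not overlap, and the log2 fold change was -1.90 ± 0.31 (SE), adjusted p = 0.0012 (3.73-fold lower). Leaving out any 1 of the 12 libraries kept it past the test. In these +DHT libraries 6 members were higher in sh_TMEFF2, against 6.93% of all genes, and 5 were lower, against 9.09%. The 6 became 3 without sh_scramble +DHT replicate 1 and also without sh_TMEFF2 +DHT replicate 2. Past 1.5-fold they were 4 (COL5A2, FN1, ITGA2 and LAMA3) and 2 (COL12A1 and LAMC1), against 3.03% and 3.74%. Without overlap were 7 members higher and 6 lower, against 15.5% and 17% (32.5% in either direction). The median was -0.001 over the members and 0.004 over all genes.

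The genes higher in sh_TMEFF2 with DHT were matrix, integrin and filamin genes. COL5A2 (2.02 ± 0.40 (SE), adjusted p = 0.0046), FN1 (1.28 ± 0.27 (SE), adjusted p = 0.0066) and ITGA2 (0.67 ± 0.15 (SE), adjusted p = 0.0097) were above sh_scramble in every library. Those 3 are also genes that DHT lowered in sh_scramble, in the same sh_scramble +DHT libraries. COL18A1 was at 11.5, 16.4 and 19.4 CPM in sh_scramble +DHT and 24.4, 23.8 and 21.5 in sh_TMEFF2 +DHT, without overlap (0.56 ± 0.16 (SE), adjusted p = 0.032). FLNA, a filamin that crosslinks actin and binds integrin tails, was at 300.1, 299 and 286 and 399, 392 and 341 CPM, also without overlap (0.36 ± 0.11 (SE), adjusted p = 0.047). The FLNA value missed the test by limma-voom (adjusted p = 0.054) and passed in 3 of the 12 fits that left out a library, with a highest adjusted p of 0.14.

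LAMA3 differed by line more than by DHT. It was at 134, 113 and 117 CPM in sh_scramble without DHT and 117, 149.6 and 120.0 with it. Its sh_TMEFF2 levels were 165, 194 and 128 without and 191, 231 and 168 with DHT. The lines did not overlap with DHT and overlapped without it. The log2 fold change between lines was 0.42 ± 0.15 (SE), adjusted p = 0.24, without DHT and 0.61 ± 0.15 (SE), adjusted p = 0.017, with DHT. The second passed in 9 of the 12 fits that left out a library.

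Lower in sh_TMEFF2 with DHT, besides COL12A1, were LAMC1 (-0.97 ± 0.16 (SE), adjusted p = 0.0014), ITGAV (-0.52 ± 0.12 (SE), adjusted p = 0.0093), VCL (-0.42 ± 0.06 (SE), adjusted p = 0.00034) and COL4A5 (-0.33 ± 0.09 (SE), adjusted p = 0.024). For these 4 the 3 sh_TMEFF2 +DHT libraries were below the 3 sh_scramble +DHT libraries, and without DHT their log2 fold changes between lines were 0.03, -0.01, -0.04 and -0.04, none past the test. COL4A5 passed in 8 of the 12 fits that left out a library, and missed the test when only library sizes were used for normalization (adjusted p = 0.052).

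VIM, the intermediate filament of mesenchymal cells, was at 1.67, 1.70 and 2.89 CPM in sh_scramble −DHT and 8.80, 5.84 and 3.85 in sh_TMEFF2 −DHT, without overlap (1.56 ± 0.40 (SE), adjusted p = 0.091). This difference passed by DESeq2 (adjusted p = 0.0053) and, in edgeR, without a filter on low counts (adjusted p = 0.027). With DHT it was at 2.12, 3.08 and 5.25 and 8.80, 5.89 and 4.32, with overlap (0.86 ± 0.38 (SE), adjusted p = 0.16). The fibroblast and smooth muscle markers given above also summed higher in sh_TMEFF2 than in sh_scramble in every library, and the luminal markers lower at each DHT level, and the part of either in the levels of VIM, COL5A2, FN1 and LAMA3 was not tested.

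**Figure D3:**
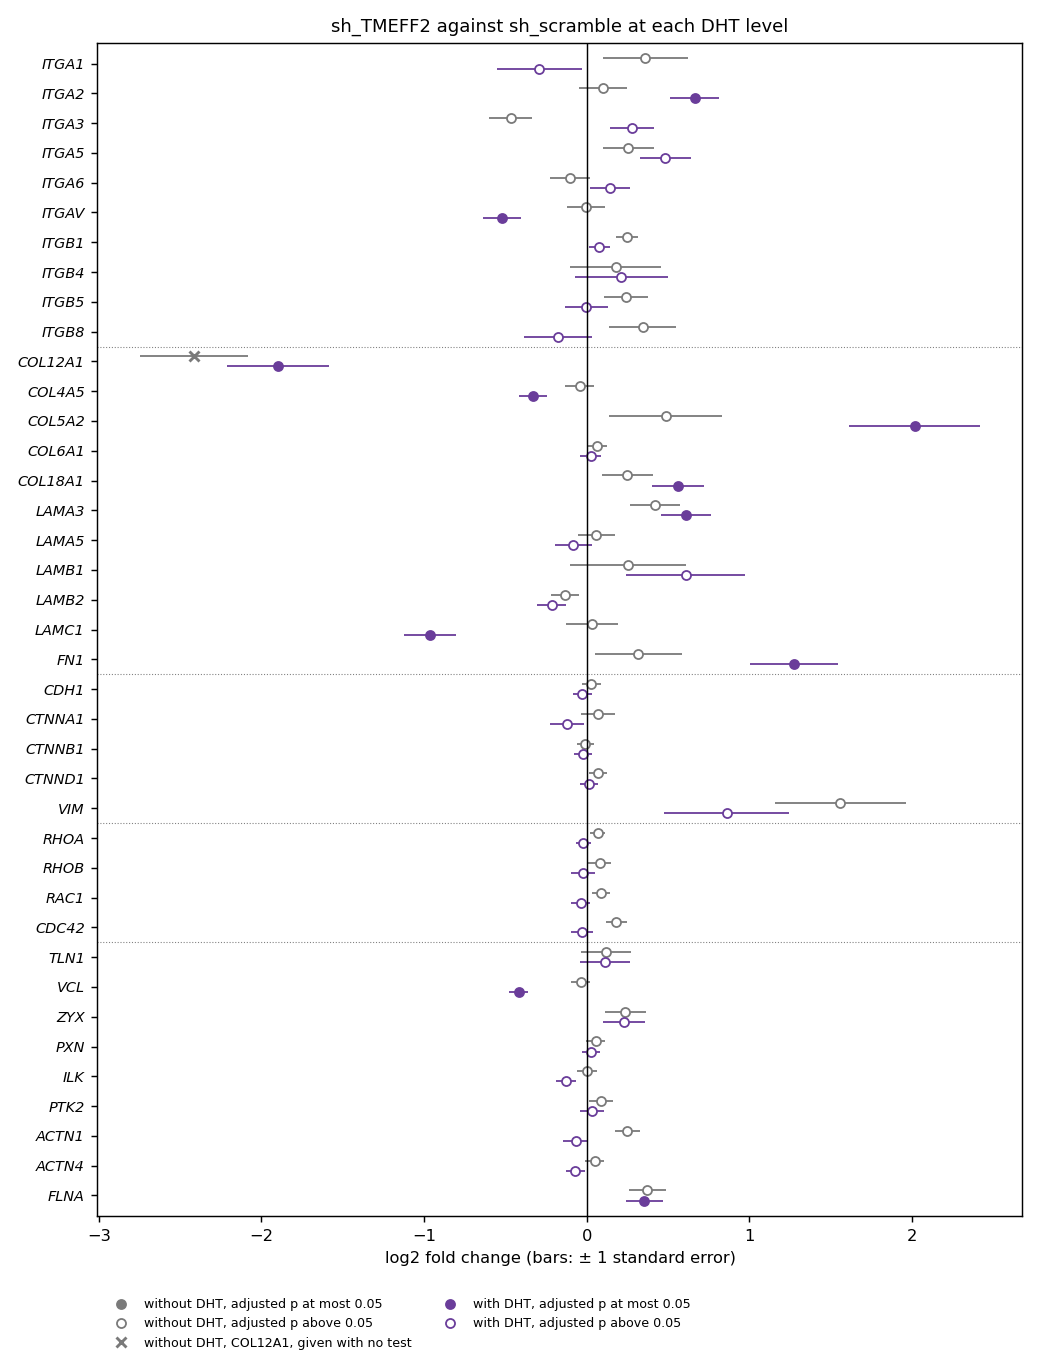
Log2 fold change (x axis) of sh_TMEFF2 against sh_scramble for the 39 members tested (y axis, ordered by role), without DHT (grey) and with DHT (purple), with bars of 1 standard error, filled points where the adjusted p was at most 0.05 and a cross for COL12A1 without DHT, given with no test. COL12A1 lies far to the left at both DHT levels, and the filled points are all from the comparison with DHT.

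Whether the DHT responses differed between the lines was asked with an interaction term, the log2 response in sh_TMEFF2 minus that in sh_scramble. ITGA3 passed with a positive difference, against 1.65% of all genes, and LAMC1 and VCL with a negative one, against 3.29%. For ITGA3 the fall of 2.01-fold in sh_scramble stood against 1.20-fold in sh_TMEFF2, a difference of 0.75 ± 0.19 (SE), adjusted p = 0.044. LAMC1 rose 2.80-fold in sh_scramble against a ratio of 1.40 in sh_TMEFF2 (-0.9998 ± 0.23 (SE), adjusted p = 0.024). For VCL the ratios were 1.37 and 1.05 (-0.38 ± 0.08 (SE), adjusted p = 0.018). VCL passed in 11 of the 12 fits that left out a library, LAMC1 in 5 and ITGA3 in 3, and ITGA3 missed the test by limma-voom (adjusted p = 0.054).

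The other differences did not pass the test. COL5A2 had 1.53 ± 0.53 (SE), adjusted p = 0.14, FN1 0.96 ± 0.38 (SE), adjusted p = 0.20, ITGA2 0.57 ± 0.21 (SE), adjusted p = 0.17 and ITGAV -0.52 ± 0.17 (SE), adjusted p = 0.10. DESeq2 passed COL5A2 (adjusted p = 0.033) and ITGAV (adjusted p = 0.043). Fitting the replicate numbers of the titles as a block in edgeR passed COL5A2, FN1 and ITGAV. For COL6A1, LAMA5, LAMB2, ZYX, PXN, CTNNB1 and RHOB, which fell in both lines, the differences lay between -0.14 and -0.01 with SEs of 0.08 to 0.18, which does not show equal responses.

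Other genes of the same pathway came from further lists, chosen with earlier results of these data known, so their shares describe the lists only. In the list of 18 other integrin chains and integrin partners, 14 were tested, and DHT raised 4 and lowered 3 in sh_scramble (50% of those tested, against 27% of all genes). CD9, a tetraspanin that binds integrins, was at 315, 297 and 280.0 CPM without and 471, 462 and 421 with DHT in sh_scramble, and at 318, 334 and 329 and 365, 360.4 and 365 in sh_TMEFF2. ITGB1BP1, which binds the tail of integrin beta 1 and opposes its activation, was at 84.8, 77.7 and 78.2 and 55.5, 60.6 and 57.3 in sh_scramble and at 74.4, 76.6 and 75.1 and 74.7, 68.1 and 72.7 in sh_TMEFF2. In both genes the sh_scramble +DHT libraries stood apart from the 9 others, and the interaction passed (-0.45 ± 0.08 (SE), adjusted p = 0.0081, and 0.40 ± 0.09 (SE), adjusted p = 0.021). TSPAN1, a tetraspanin, had 0.41 (adjusted p = 0.0026) with DHT in sh_scramble and was lower in sh_TMEFF2 than in sh_scramble with DHT (-0.59 (adjusted p = 0.00036)). In sh_TMEFF2, where 13.1% of all genes passed, 0 of the 14 did by edgeR, with 2 higher and 1 lower at an unadjusted p under 0.05, 1 higher by DESeq2 and 0 by limma-voom.

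Of 43 other collagens, laminins and matrix proteins, 29 were tested, with 2 higher and 6 lower with DHT in sh_scramble and 2 higher and 2 lower in sh_TMEFF2. These were 27.6% and 13.8% of those tested, against 27% and 13.1% of all genes. LAMA1, the alpha 1 laminin chain, went from 1.09, 1.13 and 1.37 to 26.5, 23.4 and 18.1 CPM in sh_scramble and from 0.769, 0.797 and 0.882 to 1.94, 5.52 and 3.65 in sh_TMEFF2. It rose in both lines (4.24 ± 0.31 (SE), adjusted p = 1.2e-06, and 2.18 ± 0.34 (SE), adjusted p = 0.0019), and by less in sh_TMEFF2 (-2.06 ± 0.47 (SE), adjusted p = 0.025). SDC4, the syndecan that works beside integrins at focal adhesions, was at 83.1, 86.0 and 72.8 and 35.9, 36.1 and 37.9 CPM in sh_scramble and 97.2, 76.3 and 93.9 and 85.5, 75.0 and 72.3 in sh_TMEFF2. It fell in sh_scramble (-1.14 ± 0.10 (SE), adjusted p = 5.4e-06), with an interaction of 0.94 ± 0.14 (SE), adjusted p = 0.0024. THBS1, the matricellular thrombospondin 1, rose in sh_TMEFF2 (0.52 ± 0.08 (SE), adjusted p = 0.0016) and had 0.00 (adjusted p = 0.98) in sh_scramble. COL1A1, the fibrillar type I collagen chain, and COL6A2, the partner of COL6A1, fell in both lines. COL1A1 had -0.61 (adjusted p = 0.0034) in sh_scramble and -0.68 (adjusted p = 0.0044) in sh_TMEFF2, and COL6A2 had -0.28 (adjusted p = 0.039) and -0.66 (adjusted p = 0.0012). COL16A1, a fibril-associated collagen, had -1.80 (adjusted p = 0.0021) in sh_scramble and -0.70 (adjusted p = 0.20) in sh_TMEFF2. With DHT the syndecan SDC1 was higher in sh_TMEFF2 than in sh_scramble (0.50 (adjusted p = 0.013)).

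Of 29 matrix-processing enzymes and inhibitors, 23 were tested, with 4 higher and 5 lower with DHT in sh_scramble and 1 higher and 2 lower in sh_TMEFF2. These were 39.1% and 13% of those tested, against 27% and 13.1% of all genes. MMP16, a membrane-bound metalloproteinase, was at 279.7, 304 and 284 CPM without and 112, 112 and 112 with DHT in sh_scramble, and at 297, 273 and 289.6 and 277, 211 and 218 in sh_TMEFF2. It fell in sh_scramble (-1.37 ± 0.09 (SE), adjusted p = 4.4e-07), with an interaction of 1.08 ± 0.13 (SE), adjusted p = 0.00051. TIMP2, a metalloproteinase inhibitor, fell in both lines (-1.11 (adjusted p = 2.4e-06) and -0.75 (adjusted p = 0.00046)). P4HB, a subunit of collagen prolyl hydroxylase and a disulfide isomerase, rose in sh_scramble (0.75 ± 0.09 (SE), adjusted p = 6.2e-05) and had 0.13 (adjusted p = 0.40) in sh_TMEFF2, with an interaction of -0.62 ± 0.13 (SE), adjusted p = 0.015. MMP7, matrilysin, was at 8.82, 6.63 and 10.2 CPM in sh_scramble −DHT and 2.98, 2.48 and 4.73 in sh_TMEFF2 −DHT, without overlap (-1.33 ± 0.25 (SE), adjusted p = 0.026), and it rose with DHT in sh_TMEFF2 (1.09 ± 0.25 (SE), adjusted p = 0.013) and had -0.28 (adjusted p = 0.42) in sh_scramble. The lysyl hydroxylase PLOD3 had 0.56 (adjusted p = 0.0021) in sh_scramble and 0.14 (adjusted p = 0.44) in sh_TMEFF2, and BMP1, a procollagen proteinase, -0.81 (adjusted p = 0.00074) and -0.46 (adjusted p = 0.039). P4HA1, a prolyl hydroxylase subunit, was lower in sh_TMEFF2 than in sh_scramble with DHT (-0.63 (adjusted p = 0.027)).

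Of 27 other junction genes, 25 were tested, with 3 higher and 4 lower with DHT in sh_scramble and 1 higher and 1 lower in sh_TMEFF2. These were 28% and 8% of those tested, against 27% and 13.1% of all genes. CDH26, a cadherin of epithelia, was at 32.4, 33.5 and 27.8 CPM without and 9.23, 9.08 and 9.05 with DHT in sh_scramble, and at 43.5, 28.5 and 33.8 and 30.8, 25.9 and 23.0 in sh_TMEFF2. It fell in sh_scramble (-1.77 ± 0.16 (SE), adjusted p = 4.9e-06), with an interaction of 1.37 ± 0.21 (SE), adjusted p = 0.0030. CDH3 (P-cadherin) fell in sh_scramble (-1.43 (adjusted p = 0.00062)) and had -0.35 (adjusted p = 0.32) in sh_TMEFF2. CLDN7, a tight junction claudin, rose in sh_scramble (0.33 (adjusted p = 0.0069)) and had -0.08 (adjusted p = 0.54) in sh_TMEFF2, with an interaction of -0.42 (adjusted p = 0.049). JUP, plakoglobin of desmosomes, fell in both lines (-0.41 (adjusted p = 0.0026) in sh_scramble and -0.42 (adjusted p = 0.0059) in sh_TMEFF2). TJP1, the tight junction scaffold, had 0.40 (adjusted p = 0.017) and 0.33 (adjusted p = 0.064) in the same order and was lower in sh_TMEFF2 than in sh_scramble with DHT (-0.42 (adjusted p = 0.020)). CTNNAL1, related to alpha-catenin, had -0.08 (adjusted p = 0.44) and 0.27 (adjusted p = 0.021).

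The largest list held 82 other focal adhesion and actin genes, of which 77 were tested. With DHT 14 rose and 16 fell in sh_scramble, and 6 rose and 3 fell in sh_TMEFF2. These were 39% and 11.7% of those tested, against 27% and 13.1% of all genes. RHOU was at 51.7, 42.4 and 42.7 CPM without and 168, 183 and 134 with DHT in sh_scramble, and at 49.5, 60.3 and 37.7 and 67.5, 83.2 and 61.4 in sh_TMEFF2. It rose in sh_scramble (1.82 ± 0.17 (SE), adjusted p = 8.6e-06), with an interaction of -1.30 ± 0.24 (SE), adjusted p = 0.0080. TPM1, a tropomyosin that lines actin filaments, was at 116, 110.3 and 108 and 174, 180.4 and 169 in sh_scramble and 125, 124 and 112 and 110.4, 111 and 109 in sh_TMEFF2, with an interaction of -0.77 ± 0.08 (SE), adjusted p = 0.00036. The sh_scramble +DHT libraries of both genes were above all others. PDLIM5, an alpha-actinin binding protein, rose in sh_scramble (0.88 (adjusted p = 2.9e-05)) and had 0.28 (adjusted p = 0.077) in sh_TMEFF2, and the kinases PAK1 and PAK2, which act below RAC1 and CDC42, fell in sh_scramble (-0.90 (adjusted p = 0.0052) and -0.64 (adjusted p = 0.00045)). In sh_TMEFF2 PAK2 fell too (-0.36 (adjusted p = 0.032)), and PAK1 had -0.26 (adjusted p = 0.44). TLN2, a talin, rose in sh_TMEFF2 from 6.25, 3.98 and 3.71 to 15.4, 10.3 and 17.7 CPM (1.64 ± 0.40 (SE), adjusted p = 0.018) and was at 9.10, 7.24 and 6.07 without and 8.73, 1.95 and 5.70 with DHT in sh_scramble, where the groups overlapped (-0.46 (adjusted p = 0.44), interaction 2.09 (adjusted p = 0.053)). With DHT it was higher in sh_TMEFF2 than in sh_scramble (1.41 (adjusted p = 0.029)). FERMT1, a kindlin that activates integrins, rose in both lines (0.37 (adjusted p = 0.034) in sh_scramble and 0.66 (adjusted p = 0.0036) in sh_TMEFF2). VASP, an actin elongation factor, fell in both lines (-0.29 (adjusted p = 0.043) in sh_scramble and -0.47 (adjusted p = 0.0083) in sh_TMEFF2). ARHGEF2 was higher in sh_TMEFF2 than in sh_scramble with DHT (0.51 (adjusted p = 0.013)). Without DHT PDLIM1, a PDZ and LIM protein of actin fibres, was higher in sh_TMEFF2 (0.69 (adjusted p = 0.0023)).

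**Figure D4:**
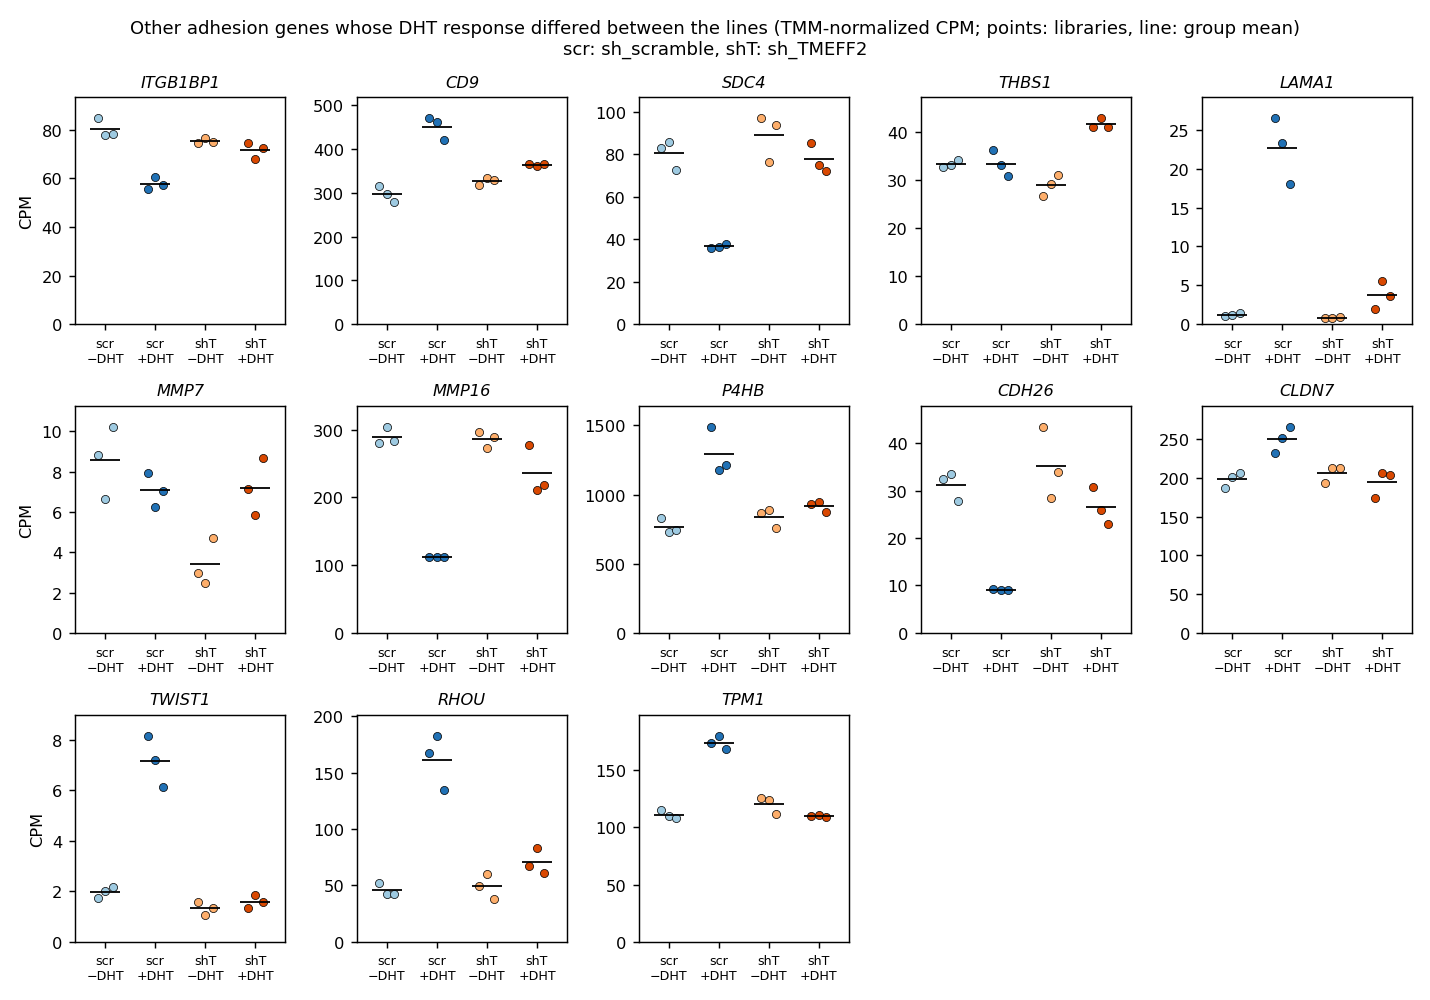
Level of 13 other adhesion genes (panels) in each library, as TMM-normalized CPM on linear axes from 0 (y axis), in the 4 groups (x axis), with a point for each of the 3 libraries and a line at the group mean. They were chosen because their DHT responses differed between the lines, and in the panels of SDC4, MMP16 and CDH26 the sh_scramble +DHT libraries lie below the rest, while for LAMA1, RHOU and TPM1 they lie above.

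In the list of 18 integrin genes and partners 21.4% of those tested passed the interaction, in that of other matrix proteins 13.8%, in that of matrix-processing enzymes 17.4%, in that of junction genes 12% and in that of focal adhesion and actin genes 6.49%. Of the lists described under other observations, that of transition factors had 20% and that of serum response and YAP targets 0%. The first is 2 passing of 10 tested. It counts SNAI2, which is given there with no test, so this share is not read. The share over all genes tested was 4.94%, and 3 of the 39 members (7.69%) passed. These shares describe the lists and were not tested against each other. The lists were chosen with earlier results of these data known, so a share above that of all genes is not a result about adhesion genes.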

How the data were processed

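RNA-seq of 12 LNCaP libraries was used. Per the labels and the methods, the authors sequenced 75 bp pairs, checked reads with FastQC, trimmed them with Trimmomatic to at least 15 bp and quantified GRCh38 transcripts with kallisto 0.42.3. They deposited expected counts per gene (estimated counts scaled by transcript length and library size), which carry no strand, and they used DESeq2. The table had 24 columns, 2 per library, whose names differ only by a suffix. The median chi-square between the 2 was 2.48 to 2.77 times its expectation. Between replicates it was 4.91 to 6.30, but on summed columns and so at greater depth, which makes the ranges unlike. The 2 columns of each library were summed and rounded.

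The counts were fitted in R 4.3.3 with edgeR 4.0.16 (TMM factors 0.955 to 1.037, filterByExpr with a minimum count of 10 and total of 15, 1 coefficient for each of the 4 groups, common biological coefficient of variation 0.131). Quasi-likelihood p-values were adjusted over 15419 genes. Genes with an adjusted p no higher than 0.05 passed, and those also changed 1.5-fold were counted too. SEs were derived from the test statistic. The script was tested on simulated data. Alternatives were DESeq2 1.42.0, limma-voom (limma 3.58.1), other filters and normalization, 6-library fits, a replicate block and leaving out each library. Members and lists were chosen with earlier results of these data known. Named in full were COL12A1 and, per comparison, the 4 members higher and the 4 lower with the largest changes among those that passed; of the other lists, at most 2 genes per direction with at least 5 CPM. Of the members, 33 overlap another gene, 31 of them on the other strand, and reads shared there cannot be told apart. A gene of the other lists that the rule named is not reported here. Sequences are from RefSeq and lengths from GENCODE v44.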

Additional observations from a re-analysis of the deposited data

Results flagged for a closer look

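For 3 members the response to DHT differed between the lines by the interaction test, given as the log2 response in sh_TMEFF2 minus that in sh_scramble. VCL had a difference of -0.38 ± 0.08 (SE), adjusted p = 0.018 (edgeR, 3 libraries per group), LAMC1 one of -0.9998 ± 0.23 (SE), adjusted p = 0.024, and ITGA3 one of 0.75 ± 0.19 (SE), adjusted p = 0.044. In each the sh_scramble response was the larger, and the libraries of the lines without DHT overlapped for VCL and LAMC1, while for ITGA3 every sh_TMEFF2 −DHT library was below every sh_scramble −DHT library. VCL passed in 11 of the 12 fits that left out a library, LAMC1 in 5 and ITGA3 in 3. By limma-voom ITGA3 missed the test.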

How the results depend on the processing

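No call among the 39 members tested changed direction under an alternative. Of the 70 log2 fold changes of members described in full, DESeq2 kept 65 on their side of the threshold and passed 5 more, limma-voom and library size normalization each lost 1, no filter gained 1, a filter at a mean of 5 CPM changed none, and fits of 6 libraries, which give no interaction, lost 2 of 56; the cause was not tested. The 0 members higher with DHT in sh_TMEFF2 became 2 with DESeq2, COL12A1 among them, and 1 with no filter. Without DHT, the 0 members higher in sh_TMEFF2 became 3 with DESeq2 and 1 with no filter. The 1 lower was COL12A1, given there with no test, and DESeq2 added ITGA3 (adjusted p = 0.044). The 1 positive interaction became 2 with DESeq2 and 0 with limma-voom.

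Leaving out each library in turn, the members higher and lower with DHT ranged from 4 to 7 and from 6 to 12 in sh_scramble, and from 0 to 1 and from 1 to 8 in sh_TMEFF2. The fewest lower came without sh_scramble +DHT replicate 2 and without sh_TMEFF2 +DHT replicate 3. Those higher and lower between the lines ranged from 0 to 2 and stayed at 1 without DHT (COL12A1, singled out for its low level there, so that this count says nothing of stability), and ranged from 3 to 6 and from 4 to 5 with DHT. In sh_scramble RHOB passed in 7 of the 12 fits and ITGA5 in 8. Interactions ranged from 0 to 1 (positive) and from 0 to 3 (negative).

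Replicate numbers in the titles do not show which libraries were handled together. Same-numbered libraries correlated in their deviations at -0.0017 to 0.17 (18 pairs, 3 over 0.1), different-numbered ones at -0.14 to 0.066, and 11 of 12 libraries correlated best with their own number, a hint from the data and not from the design. With a replicate block the members passing went from 18 to 20 and from 8 to 10 for DHT in sh_scramble and sh_TMEFF2 (1 higher in sh_TMEFF2 against 0), from 1 to 3 and from 11 to 12 between the lines without and with DHT (2 higher against 0 without DHT), and from 3 to 6 for the interaction (3 positive against 1). No call was lost among the members, but the 1 without DHT was COL12A1, singled out for its low level there and given with no test. Over all genes tested the calls also rose, from 4157 to 4816 and from 2013 to 2647 for DHT in sh_scramble and sh_TMEFF2. Between the lines they went from 172 to 362 without and from 2470 to 3113 with DHT, and for the interaction from 761 to 1120. Gained were COL18A1 and RHOA for DHT in sh_scramble, COL5A2 (adjusted p = 0.0021) and LAMC1 in sh_TMEFF2, FLNA and ITGB1 between the lines without DHT, ITGA5 with DHT, and COL5A2, FN1 and ITGAV for the interaction.

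Depth limits ITGA1, ITGB4, ITGB8, LAMB1, VIM and COL12A1, which had few counts, and COL5A2, which had 58, 31 and 38 counts in the sh_scramble +DHT libraries.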

Other observations

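Transcription factors that set epithelial or mesenchymal state formed a list of 11 genes, 10 of them tested. With DHT 4 rose and 1 fell in sh_scramble (50% of those tested, against 27% of all genes) and 1 rose in sh_TMEFF2 (10% against 13.1%). TWIST1, a mesenchymal factor, was at 1.72, 2.00 and 2.15 CPM without and 8.18, 7.22 and 6.15 with DHT in sh_scramble, and at 1.59, 1.06 and 1.35 and 1.34, 1.87 and 1.56 in sh_TMEFF2, so that only the sh_scramble +DHT libraries were high (1.87 ± 0.21 (SE), adjusted p = 3.3e-05, in sh_scramble, interaction -1.61 ± 0.31 (SE), adjusted p = 0.0097). GRHL2, an epithelial factor that supports CDH1, also rose in sh_scramble (0.73 ± 0.15 (SE), adjusted p = 0.0031), had 0.07 (adjusted p = 0.82) in sh_TMEFF2, and was lower in sh_TMEFF2 than in sh_scramble with DHT (-0.63 ± 0.15 (SE), adjusted p = 0.013). SNAI2, chosen after its values were seen, was at 0.0905, 0 and 0.147 CPM in sh_scramble −DHT, at or under 3 counts, and at 5.10, 3.76 and 4.75 in sh_scramble +DHT, against 0.0961, 0.0885 and 0.186 in sh_TMEFF2 −DHT and 0.37, 0.593 and 0.49 in sh_TMEFF2 +DHT. It passed the filter on low counts through sh_scramble +DHT, where it is high, so its values are given with no test, although it is counted above, as 1 of the 4 and as the 1 in sh_TMEFF2. OVOL1, an epithelial factor, had -0.44 (adjusted p = 0.033) in sh_scramble and -0.30 (adjusted p = 0.18) in sh_TMEFF2. CDH1 levels are given above and passed no test.

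Of 14 serum response and YAP target genes 11 were tested. With DHT 0 passed in sh_scramble, where 27% of all genes did, by edgeR or limma-voom, with 1 higher by DESeq2 and 1 higher and 1 lower at an unadjusted p under 0.05, and 2 fell in sh_TMEFF2 (18.2% of those tested, against 13.1% of all genes), among them JUNB (-0.56 ± 0.17 (SE), adjusted p = 0.045, with -0.34 (adjusted p = 0.16) in sh_scramble). With DHT the YAP target AMOTL2 and the zyxin-family gene AJUBA were higher in sh_TMEFF2 than in sh_scramble (0.68 ± 0.18 (SE), adjusted p = 0.022, and 0.49 ± 0.13 (SE), adjusted p = 0.025), and the kinase gene LATS2 was lower (-0.44 ± 0.12 (SE), adjusted p = 0.026).

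FN1 and FLNA were highest in the library numbered 1 and lowest in the library numbered 3 in all 4 groups. The same number was highest and the same number lowest in all 4 groups for 2 of the 39 members (5.13%) and for 282 of the 15419 genes tested (1.83%).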
